A study of Rattus norvegicus with 10 samples.

Results

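Red-cell genes other than the globins are described here in CD11b+ cells of the hemorrhagic striatum. There were 4 of them, Alas2, Slc4a1, Alox15 and Ermap, among 32883 Ensembl identifiers in the count table. They were chosen as red-cell genes seen to vary between these same libraries, so that their differences are given as a description and carry no test. The libraries came from 12-week-old male Sprague-Dawley (SD) rats in which intracerebral hemorrhage (ICH) was induced with collagenase in the right striatum. The ICH+rhCDNF rats received recombinant human cerebral dopamine neurotrophic factor into the ventricle 1 h after ICH, and the ICH+Saline rats received saline by the same route. Both groups carried the hemorrhage, and no library came from a brain without one. On day 3, cells of the dissected tissue were depleted of myelin and selected on magnetic columns for CD11b, an integrin of myeloid cells, and 5 libraries per group were sequenced. Columns of the count table carried a sequencing index and not the number of the sample label, and the libraries are named here by that index, S6 to S10 for ICH+rhCDNF and S1 to S5 for ICH+Saline.

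Red cells carry hemoglobin, built from globin chains and heme, and they lose their nucleus as they mature. The youngest red cells in blood, the reticulocytes, still hold RNA left over from the erythroblast. In tissue into which blood has leaked, such RNA can be read beside that of the brain's own cells and of the infiltrating leukocytes. Alas2 encodes the erythroid form of 5-aminolevulinate synthase, which carries out the first step of heme synthesis. Slc4a1 encodes band 3, which exchanges chloride and bicarbonate across the membrane of the red cell and anchors its skeleton. Alox15 encodes a lipoxygenase that oxidises membrane lipids in maturing reticulocytes and is also made by some macrophages and by eosinophils. Ermap encodes an erythroid membrane-associated protein of the butyrophilin-like family, which carries the Scianna blood group antigens in human. Hba-a1 encodes an alpha globin chain and Hbb a beta globin chain, and both are set beside the 4 genes as a measure of globin RNA.

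Erythroid genes are classically controlled by GATA1, which binds DNA at GATA sequences, and the windows around the start sites are shown to set the globin beside the heme synthesis gene and Ermap. RefSeq (build GRCr8) held such a window for 3 of these 5 genes, namely Alas2, Ermap and Hba-a1, each with 250 bases before the start and 50 after it. The sequences below run from 5′ to 3′ on the gene's strand, with GATAA, or TTATC where it lies on the other strand, in capitals.
Hba-a1: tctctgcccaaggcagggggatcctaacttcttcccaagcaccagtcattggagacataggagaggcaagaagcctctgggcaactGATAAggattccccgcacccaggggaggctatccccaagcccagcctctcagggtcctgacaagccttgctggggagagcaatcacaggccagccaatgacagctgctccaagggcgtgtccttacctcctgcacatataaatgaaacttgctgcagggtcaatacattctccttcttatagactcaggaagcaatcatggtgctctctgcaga
Ermap: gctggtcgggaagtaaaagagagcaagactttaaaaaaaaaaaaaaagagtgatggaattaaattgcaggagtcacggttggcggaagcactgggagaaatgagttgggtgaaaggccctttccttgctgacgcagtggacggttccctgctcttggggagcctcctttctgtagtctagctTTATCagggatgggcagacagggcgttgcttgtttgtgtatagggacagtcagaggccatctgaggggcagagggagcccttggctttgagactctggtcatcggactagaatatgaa
Alas2: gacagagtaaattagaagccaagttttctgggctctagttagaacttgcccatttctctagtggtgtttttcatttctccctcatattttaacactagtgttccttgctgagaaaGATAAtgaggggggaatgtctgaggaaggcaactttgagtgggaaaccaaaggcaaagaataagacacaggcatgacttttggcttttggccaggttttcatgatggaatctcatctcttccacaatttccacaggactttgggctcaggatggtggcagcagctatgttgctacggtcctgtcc
The Hba-a1 window was chr10:15842531-15842830 on the minus strand, the Ermap window chr5:138088109-138088408 on the minus strand and the Alas2 window chrX:22895200-22895499 on the plus strand. The start used for Ermap lay 182 bases inside the gene's annotated range and that used for Alas2 4800 bases inside it, so that these 2 windows belong to a shorter transcript. Each of the 3 windows held GATAA once when both strands were read, beginning 164 bases before the start of Hba-a1, 68 bases before that of Ermap and 135 bases before that of Alas2. Of all 33469 windows of the same length, 26.5% held it. CACCC, the core of the site of the erythroid factor KLF1, was found once in Hba-a1 and once in Ermap on either strand, and 54.9% of all windows held it. The interferon response element was found in none of the 3 windows on either strand, and 3.92% of all windows held it. The motifs were chosen after the expression values had been seen, and a match is only a match of letters.

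Libraries held 14376582 to 16784638 counts, and levels are given as CPM, that is counts scaled to library size with TMM factors. Before those factors were applied, 1 CPM stood for 14.4 to 16.8 reads. Myeloid markers were abundant as the label calls for. The summed level of the 5 of 12 listed markers that could be named (Cx3cr1, Csf1r, C1qa, C1qb and P2ry12) was 4695 to 7071 CPM in ICH+rhCDNF libraries and 3926 to 5175 CPM in ICH+Saline libraries. Listed markers of platelets, neutrophils, eosinophils and B cells could not be tied to an identifier and were not analysed here. In bulk libraries of this kind, fewer cells of a type and less RNA per cell cannot be told apart. Across the 12199 genes that passed the filter on low counts, 0 were called higher and 0 lower in ICH+rhCDNF cells by edgeR's quasi-likelihood test after Benjamini-Hochberg adjustment at 0.05. At an unadjusted p under 0.05 there were 841 higher (6.89%) and 670 lower (5.49%), and DESeq2 called 2 higher and 0 lower after adjustment.

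Alas2, Slc4a1 and Alox15 were highest in the same ICH+rhCDNF library, S8, which also held by far the most globin RNA, whereas Ermap was highest in another ICH+rhCDNF library, S6, and near its lowest level in S8. Hba-a1 (ENSRNOG00000029886) was at 33.3, 11.0, 854, 42.8 and 40.7 CPM in ICH+rhCDNF libraries S6 to S10, against 18.1, 20.6, 21.4, 16.8 and 8.65 CPM in ICH+Saline libraries S1 to S5. S8 stood far above the next library, S9, and 4 of 5 ICH+rhCDNF libraries lay above every ICH+Saline library, as did 4.98% of all genes tested. Hbb (ENSRNOG00000058105) was at 9.89, 4.40, 206, 11.9 and 13.6 CPM in S6 to S10, against 4.77, 6.92, 6.79, 5.15 and 1.64 CPM in S1 to S5. Both globins were thus high in S8, moderately raised in S6, S9 and S10, and within the ICH+Saline range in S7. Reads of alpha globin genes with nearly the same sequence may have been split between identifiers by the counting, which makes the absolute level of Hba-a1 uncertain.

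**Figure D1:**
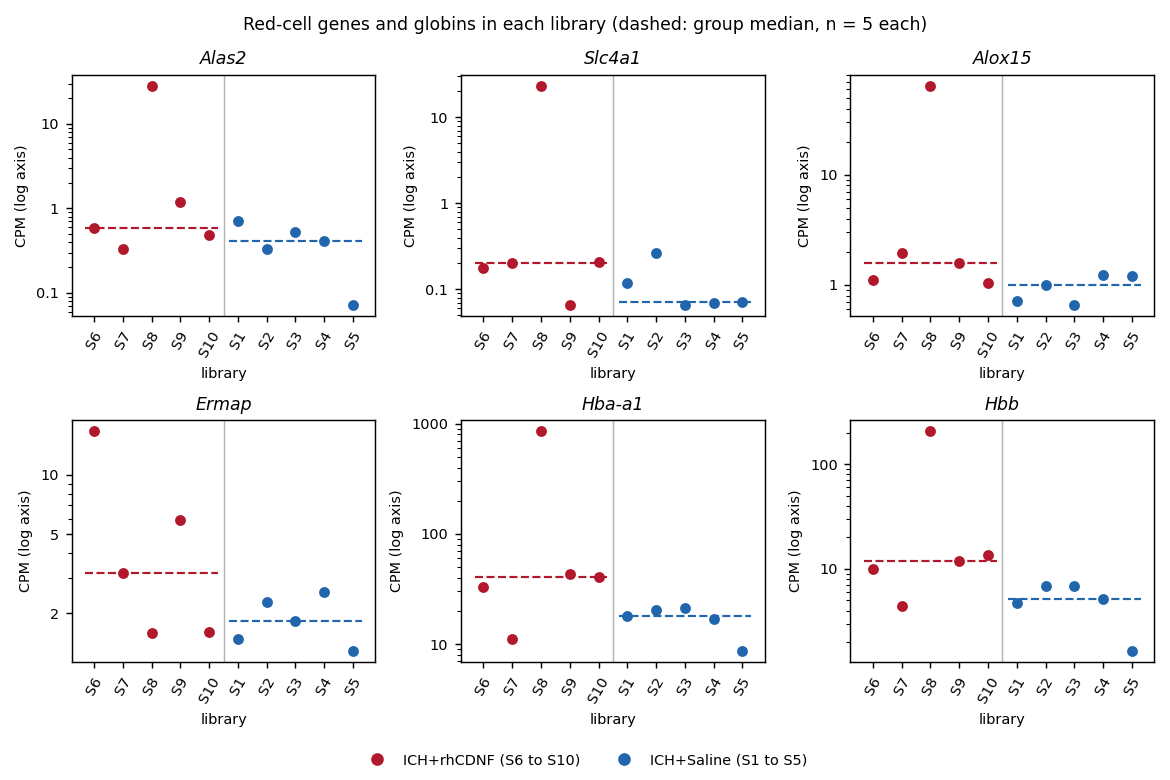
Level of the 4 red-cell genes and of the globins Hba-a1 and Hbb in each library, in CPM on a log axis, with ICH+rhCDNF libraries left of ICH+Saline libraries and dashed lines at the group medians (n = 5 each). S8 is the highest point for Alas2 (28.5 CPM), Slc4a1 (23.4 CPM), Alox15 (64.8 CPM) and both globins, and S6 is the highest for Ermap (16.6 CPM).

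Alas2 (ENSRNOG00000000167), the erythroid enzyme at the head of heme synthesis, gave 10, 5, 412, 18 and 7 reads in ICH+rhCDNF libraries S6 to S10, against 12, 5, 8, 6 and 1 reads in ICH+Saline libraries S1 to S5. Its level was 0.585, 0.333, 28.5, 1.19 and 0.490 CPM in S6 to S10, against 0.707, 0.333, 0.523, 0.412 and 0.0715 CPM in S1 to S5. Only S8 and S9 lay above every ICH+Saline library, and the groups overlapped. The name of this identifier is less certain than those of the other 3, since it was found by its pattern over the libraries after an identifier matched better by alpha globin had been set aside. The mean was 6.22 ± 12.5 CPM in the ICH+rhCDNF group and 0.409 ± 0.235 CPM in the ICH+Saline group (SD, n = 5 each), a ratio of 15.2. S8 held 85.1% of all Alas2 reads and stood 24.0 times above S9. Without S8 the ICH+rhCDNF mean was 0.649 ± 0.374 CPM (SD, n = 4) and its ratio to the ICH+Saline mean 1.59. On the log2 scale the fitted difference was 3.85 (standard error 1.201), and it was 0.63 when S8 was left out.

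Slc4a1 (ENSRNOG00000020951), the band 3 anion exchanger, was the gene most concentrated in 1 library. It gave 3, 3, 339, 1 and 3 reads in S6 to S10, against 2, 4, 1, 1 and 1 reads in S1 to S5. These correspond to 0.176, 0.2001, 23.4, 0.0661 and 0.210 CPM in ICH+rhCDNF libraries, against 0.118, 0.266, 0.0653, 0.0687 and 0.0715 CPM in ICH+Saline libraries. S8 alone lay above every ICH+Saline library, and the other 4 ICH+rhCDNF libraries lay within the ICH+Saline range at counts of 3 reads or fewer. S8 held 94.7% of all reads of the gene and stood 88.0 times above the next library, which was the ICH+Saline library S2. The ICH+rhCDNF mean was 4.82 ± 10.4 CPM and the ICH+Saline mean 0.118 ± 0.0857 CPM (SD, n = 5 each), a ratio of 40.9 that became 1.38 without S8. The fitted log2 difference was 5.23 (standard error 1.61) with S8 and 0.43 without it. Alas2 and Slc4a1 did not pass the filter on low counts, and their fold changes come from the fit without it.

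Alox15 (ENSRNOG00000019183), the lipoxygenase, gave 19, 29, 937, 24 and 15 reads in S6 to S10, against 12, 15, 10, 18 and 17 reads in S1 to S5. Its level was 1.11, 1.93, 64.8, 1.59 and 1.05 CPM in ICH+rhCDNF libraries, against 0.707, 0.999, 0.653, 1.24 and 1.22 CPM in ICH+Saline libraries. S7, S8 and S9 lay above every ICH+Saline library, and S6 and S10 lay within the ICH+Saline range. The mean was 14.1 ± 28.3 CPM in the ICH+rhCDNF group and 0.962 ± 0.274 CPM in the ICH+Saline group (SD, n = 5 each). S8 held 85.5% of the reads and stood 33.5 times above S7, the library in which both globins were at their lowest level in the ICH+rhCDNF group. Without S8 the ICH+rhCDNF mean was 1.42 ± 0.418 CPM (SD, n = 4), and the ratio of the means was 1.48 in place of 14.7. The fitted log2 difference, 3.87 (standard error 1.29), was 0.57 without S8.

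Ermap (ENSRNOG00000000335), the erythroid membrane-associated protein, was placed otherwise. It gave 283, 48, 23, 89 and 23 reads in S6 to S10, against 25, 34, 28, 37 and 18 reads in S1 to S5. Its level was 16.6, 3.20, 1.59, 5.88 and 1.61 CPM in ICH+rhCDNF libraries, against 1.47, 2.26, 1.83, 2.54 and 1.29 CPM in ICH+Saline libraries. S6, S7 and S9 lay above every ICH+Saline library, while S8 and S10 lay within the ICH+Saline range. S6 held 46.5% of the reads and stood 2.82 times above S9, so that a single library decided less of the total than for the other 3 genes. The mean was 5.77 ± 6.28 CPM in the ICH+rhCDNF group and 1.88 ± 0.526 CPM in the ICH+Saline group (SD, n = 5 each), a ratio of 3.07. Without S6 the ICH+rhCDNF mean was 3.07 ± 2.02 CPM (SD, n = 4) and the ratio 1.63. The fit gave a log2 difference of 1.63 (standard error 0.603), which was 0.71 without S6.

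For none of the 4 genes did all 5 ICH+rhCDNF libraries lie above all 5 ICH+Saline libraries, which held for 0.975% of the genes tested (1.26% in the opposite direction). 2 of the 4, Alox15 and Ermap, passed the filter on low counts. Both had a fitted fold over 3, which 10 genes, or 0.082% of those tested, showed in this direction, but the genes were chosen on this contrast and nothing is read from that count.

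Whether the 3 genes of S8 kept 1 proportion to globin RNA was then asked by expressing each per 1000 Hba-a1 reads of the same library. Such a ratio is compared between libraries and not between genes, because transcript length enters it. For Alas2 it was 17.6, 30.3, 33.4, 27.8 and 12.05 in ICH+rhCDNF libraries S6 to S10, against 39.1, 16.2, 24.4, 24.6 and 8.26 in ICH+Saline libraries S1 to S5. Only S1 lay above S8, whose exact 95% interval was 30.2 to 36.8. The other 9 libraries pooled gave 22.0 (exact 95% interval 17.2 to 27.8), so that S8 was 1.52 times as high (95% interval 1.18 to 1.98). Intervals on reads, here and below, cover counting error only and leave out the spread between rats. For Alas2 single libraries outside S8 ran from 8.26 in S5 to 39.1 in S1. Reads amplified by PCR are not independent molecules, so that the intervals may be too narrow for counting error as well.

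For Slc4a1 the ratio was 5.27, 18.2, 27.4, 1.54 and 5.16 per 1000 Hba-a1 reads in S6 to S10, against 6.51, 12.9, 3.05, 4.10 and 8.26 in S1 to S5. S8 was above every other library. The other 9 libraries pooled gave 5.81 (3.49 to 9.08) and S8 gave 27.4 (24.6 to 30.6), or 4.73 times as much (95% interval 2.98 to 7.95). The pooled value rested on 19 reads. For Alox15 the ratio was 33.4, 176, 75.9, 37.0 and 25.8 in S6 to S10, against 39.1, 48.5, 30.5, 73.8 and 140 in S1 to S5. S7 and S5, the libraries with fewest Hba-a1 reads in their groups (165 in S7 and 121 in S5), had the highest ratios, and S8 came next. Pooled, the other 9 gave 48.6 (41.2 to 57.0) and S8 gave 75.9 (70.9 to 81.1), or 1.56 times as much (95% interval 1.32 to 1.86).

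For Ermap the ratio was 497, 291, 1.86, 137 and 39.6 in S6 to S10, against 81.4, 110, 85.4, 152 and 149 in S1 to S5. S8 lay below every other library by a wide margin, with 1.86 (1.18 to 2.80) against 179 (163 to 195) in the other 9 pooled. Hbb, set to the same measure, gave 241 per 1000 Hba-a1 reads in S8 and 304 in the other 9, or 0.791 times as much in S8, and its reads were above those expected from S8 in 6 of 9 libraries. The ratio of the 2 globins therefore moved by less between S8 and the rest than that of any of the 4 genes to Hba-a1.

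**Figure D2:**
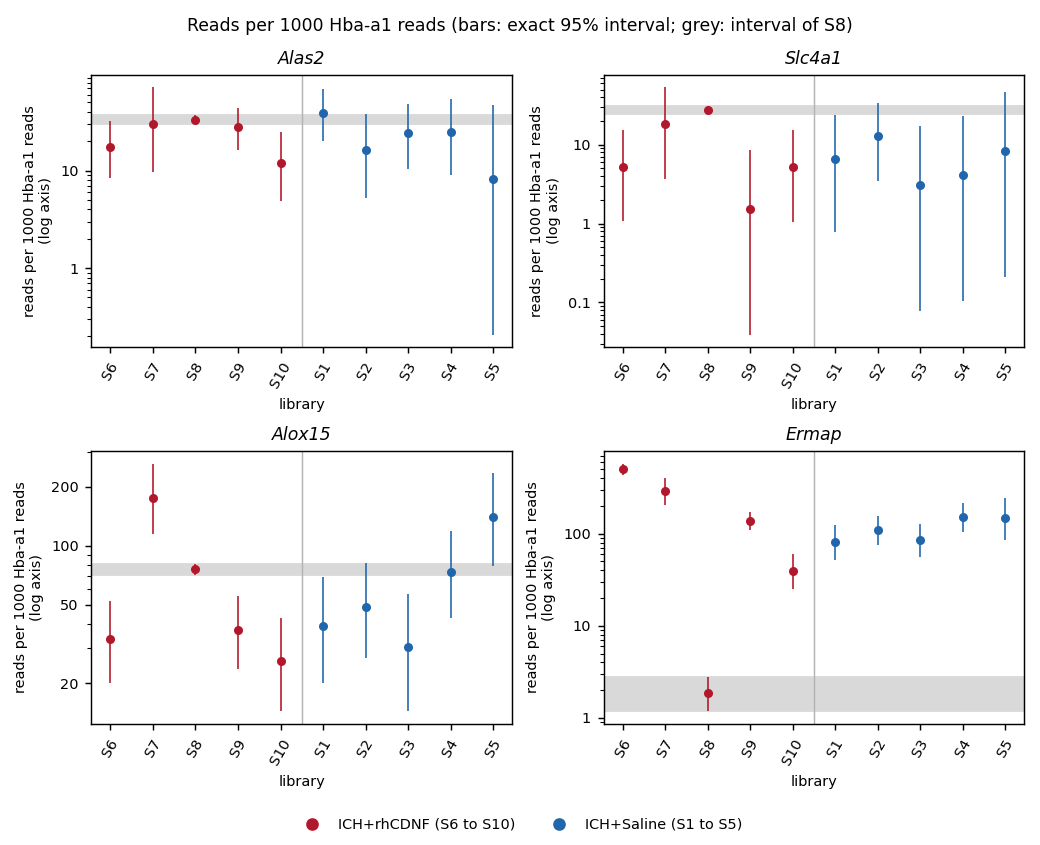
Reads of each red-cell gene per 1000 Hba-a1 reads in each library, on a log axis, with exact 95% intervals as bars, ICH+rhCDNF libraries on the left and the interval of S8 as a grey band. Alas2 points lie mostly below the band, with bars that reach it in most libraries. Slc4a1 points lie below it in every other library, Alox15 points on both sides of it, and Ermap points far above it in all 9 other libraries.

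The same question was put on the scale of reads. The number of reads expected in each of the other 9 libraries was its Hba-a1 count times the ratio found in S8, and it was set beside the exact 95% Poisson interval of the reads observed. Alas2 was within the interval in 7 of 9 libraries and below the expected number in 2. Those were S10, with 7 reads where 19.4 were expected, and S6, with 10 where 19.0 were expected and an interval that ended at 18.4. At 1 to 18 reads per library, most libraries could thus not be told from the proportion found in S8, although the pooled proportion was lower outside S8.

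Slc4a1 was within the interval in 3 of 9 libraries and below the expected number in 6. In S9 there was 1 read where 17.8 were expected, and in S6 and S10 there were 3 where 15.6 and 15.9 were expected. Libraries S6, S9 and S10, which had more Hba-a1 than any ICH+Saline library, therefore did not carry band 3 RNA in the proportion of S8. Alox15 was within the interval in 2 libraries, below in 5 and above in 2. The 2 above were S7, with 29 reads where 12.5 were expected, and S5, with 17 where 9.18 were expected. Alox15 reads outside S8 ranged from 10 to 29 in libraries whose Hba-a1 reads ranged from 121 to 648. Ermap was above the expected number in all 9 libraries, and its largest expected number was 1.21 reads, in S9, where 89 were observed.

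**Figure D3:**
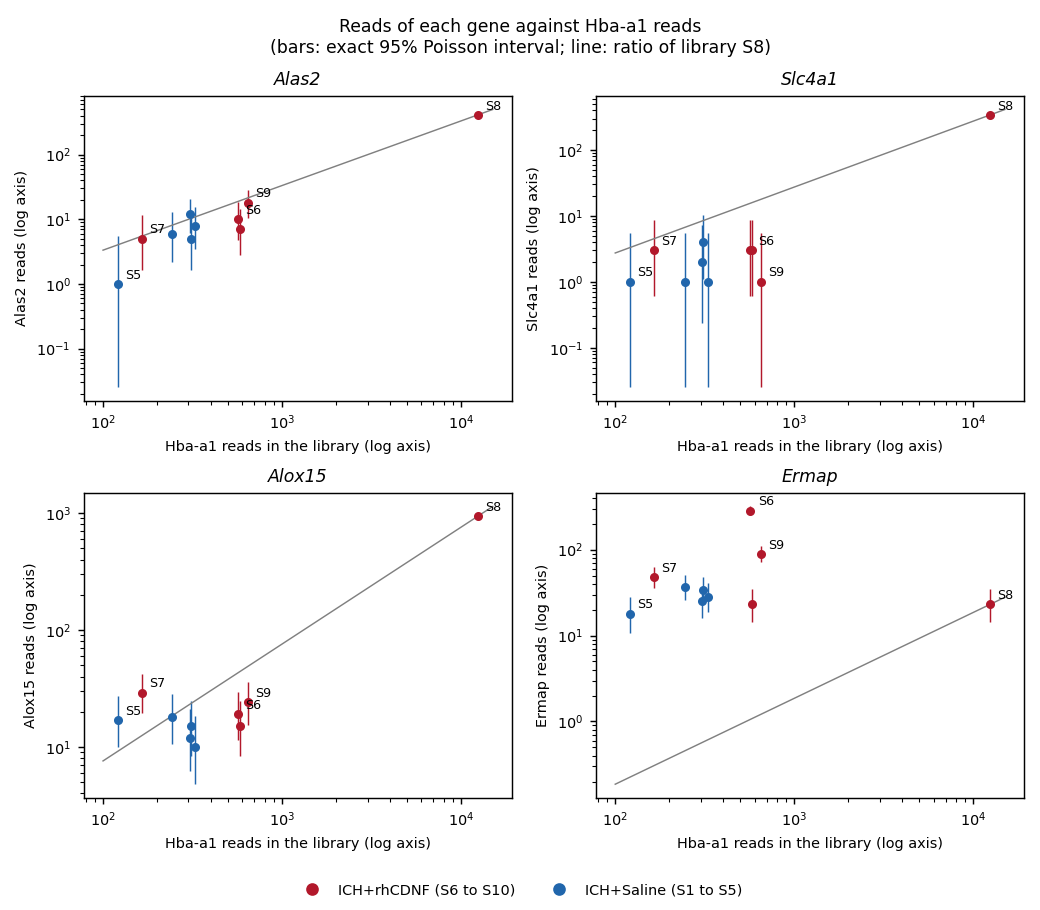
Reads of each red-cell gene against Hba-a1 reads, 1 point per library on log axes, with exact 95% Poisson intervals as bars and a line through the ratio of S8. Most Alas2 bars reach the line, 6 of 9 Slc4a1 bars outside S8 stay below it, and Alox15 outside S8 stays between 10 and 29 reads across the range of Hba-a1.

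Correlations across libraries showed how much of each pattern rested on S8. They were taken on log2 CPM, are a description, and share the scaling of each library. Alas2 had a Pearson r with Hba-a1 of 0.97 over 10 libraries and of 0.79 over the 9 without S8. Slc4a1 had 0.91 over 10 libraries and 0.14 without S8. Alox15 had 0.88 over 10 libraries and -0.13 without S8. Of these 3, only Alas2 had an r of that size with Hba-a1 outside S8, as did Hbb (0.99 over 10 libraries and 0.95 without S8). Outside S8, however, Slc4a1 had 1 to 4 reads per library, too few for its r to show whether it followed Hba-a1. The r of Alas2 without S8 itself rested on 1 to 18 reads per library. For Ermap r with Hba-a1 was -0.02 over 10 libraries and 0.47 without S8.

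Among themselves, Alas2, Slc4a1 and Alox15 had r of 0.90 to 0.96 over 10 libraries, and of -0.10 to 0.12 over the 9 without S8. Alas2 gave 1.22 reads per Slc4a1 read in S8 (95% interval 1.05 to 1.41) and 3.79 in the other 9 libraries pooled (2.26 to 6.65). Alox15 gave 2.76 reads per Slc4a1 read in S8 and 8.37 in the other 9 (5.19 to 14.3). In contrast, Alox15 gave 2.27 reads per Alas2 read in S8 (2.02 to 2.56) and 2.21 in the other 9 (1.66 to 2.96). Slc4a1 was therefore over-represented in S8 relative to both other genes, while the proportion of Alox15 to Alas2 in S8 lay within the interval of the rest pooled. That pooled value joined unlike libraries. S1 had 12 reads of each of these genes, and S5 had 17 of Alox15 and 1 of Alas2.

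Outside S8, the 2 groups had overlapping intervals for the 3 genes per 1000 Hba-a1 reads. Alas2 was at 20.4 (14.5 to 27.8) in the other 4 ICH+rhCDNF libraries pooled and at 24.4 (16.7 to 34.7) in the 5 ICH+Saline libraries. Slc4a1 was at 5.09 (2.44 to 9.39) in the ICH+rhCDNF libraries and at 6.88 (3.14 to 13.1) in the ICH+Saline libraries. Alox15 was at 44.3 (35.3 to 54.9) in the ICH+rhCDNF libraries and at 55.0 (42.8 to 69.8) in the ICH+Saline libraries. Ermap was at 226 (203 to 250) in the ICH+rhCDNF libraries without S8 and at 108 (90.6 to 129) in the ICH+Saline libraries, so that its intervals did not overlap. Pooled intervals leave out the spread between libraries, and for Ermap S6 alone gave 283 of the 443 ICH+rhCDNF reads.

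By likeness of pattern, measured as Pearson r of log2 CPM over 10 libraries among 779 named genes, the 4 genes nearest to Alas2 were Hba-a1 (0.97), Hbb (0.96), Slc4a1 (0.91) and Alox15 (0.90). The genes nearest to Slc4a1 were Alox15 (0.96), Alas2, Hba-a1 and Hbb (0.89), followed by the zinc finger gene Zbtb40 (0.74). Those nearest to Alox15 were Slc4a1, Alas2, Hba-a1, Hbb (0.86) and Zbtb40 (0.80). The 3 genes and the globins thus stood together by this measure, and that likeness rested on S8 except for Alas2 and the globins. Without S8, the 5 genes nearest to Alas2 were Catip (0.80), Hbb and Hba-a1 (0.79 each), Col4a3 (0.78) and Cd80 (0.76). Genes outside the red-cell list thus had an r with Alas2 close to that of the globins, so that this r did not set the globins apart. The globins were absent from the 5 nearest to Slc4a1 and to Alox15. Slc4a1 was then nearest to Vwf (0.84), the von Willebrand factor of endothelium and platelets, with Hid1, Gfap, Akap2 and Podxl next, at 4 reads or fewer of Slc4a1 per library. Alox15 was then nearest to Irgq (0.89), Kcnt2, Cd101, Ddit4 and Vangl2 (0.83).

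S8 was the highest of the 10 libraries for 10.6% of the genes tested, and 16 identifiers with at least 20 reads there exceeded 5 times their level in every other library. Those 16 made up 0.171% of its reads, and they included Alas2, Slc4a1, Alox15, Hba-a1 and Hbb, while the other 11 were not tied to a name. Among those 11 was ENSRNOG00000047321, with 5943 reads in S8, which the alpha globin Hba-a2 matched best without a tie. Of 65 red-cell genes listed for this work, 10 could be tied to an identifier, 4 of them neither globins nor among the genes described above. These were Tfrc, the transferrin receptor, Tal1, a transcription factor of blood and endothelium, Car2, a carbonic anhydrase, and Slc14a1, the urea transporter of the red cell and other tissues. None of the 4 was highest in S8. Tfrc was at 438 ± 80.2 CPM in the ICH+rhCDNF group and at 527 ± 77.3 CPM in the ICH+Saline group (SD, n = 5 each) and was highest in S5, while Car2 was highest in S9 and Tal1 and Slc14a1 in S6. Their summed level was 569 CPM in S8, with a highest value elsewhere of 674 CPM in S5. Tfrc made up most of both sums (500 CPM in S8 and 618 CPM in S5), so that they say little of the other genes. Among the 10 libraries, S8 ranked 2 for Car2, 3 for Tal1, 5 for Tfrc and 8 for Slc14a1.

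Ermap shared its high library with many genes. S6 was the highest of the 10 libraries for 20.8% of the genes tested. Ermap could be compared by pattern only with the 779 named genes, which had themselves been named by their pattern over the libraries. Of the 5 nearest to it over 10 libraries, the first were Trpm2, a cation channel of phagocytes (r of 0.97), and C3, the central complement component (0.97). Next came Kif21b, a kinesin (0.96), Spns2, a transporter of sphingosine-1-phosphate (0.96), and Dapp1, an adaptor protein of B cells and other leukocytes (0.96). Each of the 5 was highest in S6 and next highest in S9, as was Ermap. C3 was at 1977, 531, 438, 935 and 429 CPM in S6 to S10, against 341, 548, 550, 486 and 422 CPM in S1 to S5, and Trpm2 was at 525, 240, 204, 331 and 214 CPM in S6 to S10, against 175, 217, 197, 227 and 211 CPM in S1 to S5. Without S6, the nearest were Rab3ip (0.97), Mrc2, Golm1, Ctss, a lysosomal protease of antigen-presenting cells, and Arhgef40 (0.93), each of which was highest in S9 among the remaining libraries. No globin and none of the other 3 red-cell genes was among these.

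Interferon-induced genes and myeloid markers were also high in S6 and S9, the libraries with most Ermap, but not in S7, where Ermap was likewise above every ICH+Saline library. The summed level of 5 of the 6 listed interferon-induced genes (Gbp6, Gbp2, Gbp5, Ifi27l2b and Zbp1) was 659 CPM in S6, with a highest value elsewhere of 170 CPM, and each of the 5 was highest there. That next value was in S9, and S7 had the lowest of the ICH+rhCDNF group. Gbp2 made up most of the sum in S6 (434 CPM) and in S9 (113 CPM). In S9 each of the 5 lay above every ICH+Saline library, but Gbp6 (0.594 CPM) and Zbp1 (15.3 CPM) only narrowly. The highest ICH+Saline levels of these 2 were 0.533 and 14.2 CPM, in S2. The sum of the 5 interferon-induced genes was 94.3 to 659 CPM in ICH+rhCDNF libraries and 77.9 to 103 CPM in ICH+Saline libraries. The summed level of the 5 myeloid markers was 6931 CPM in S6 and 7071 CPM in S9, above every ICH+Saline library (up to 5175 CPM), whereas S7 (4725 CPM) and S8 (4695 CPM) lay within the ICH+Saline range. Csf1r was the largest part of that sum, at 3179 CPM in S6 and 3690 CPM in S9. Slc14a1 was at 5.73, 1.87, 0.830, 0.462 and 2.94 CPM in S6 to S10, against 0.353, 2.20, 0.980, 1.24 and 1.14 CPM in S1 to S5, and was thus also highest in S6. The part of these lists in the level of Ermap was not tested.

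**Figure D4:**
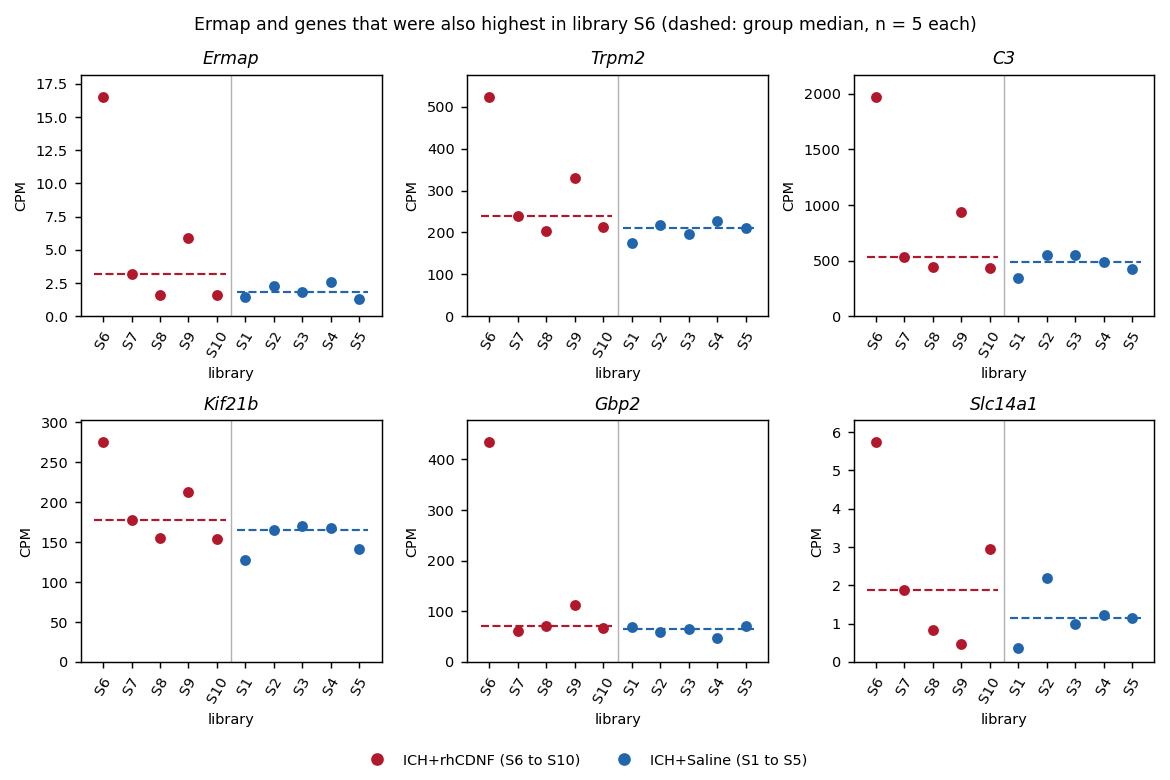
Level in CPM, on axes that start at 0, of Ermap, of the 3 genes nearest to it by pattern (Trpm2, C3 and Kif21b), of the interferon-induced gene Gbp2 and of the red-cell urea transporter gene Slc14a1, with ICH+rhCDNF libraries left of ICH+Saline libraries and dashed lines at the group medians (n = 5 each). S6 is the highest library in every panel, and S9 is the next in all but Slc14a1.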

How the data were processed

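Directional single-end libraries were made from RNA depleted of ribosomal RNA. The authors trimmed the reads, aligned them to Rnor_6.0 and deposited raw counts per Ensembl gene (Trimmomatic 0.36, STAR 2.5.3a and featureCounts of Subread 1.6.4, as listed by the submitters, while the methods name a different STAR version). Whether counting used strand is not given in the sources used here. Columns could be placed in a group but not matched to a numbered sample. The study's methods give n as animals, so the spread is that between rats.

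The 4 genes, the lists and the rules were chosen with earlier results of these data known. Alox15 and Ermap came with identifiers. Other names were found by matching counts over the libraries to the first 1998 rows of the study's supplementary table of transcript levels, used for nothing else. Best matches in both directions were kept where the next best was 1.5 times worse, and Alas2 and Slc4a1 were matched by deviance per read among identifiers with at least 100 reads, a rule changed after values were seen. For these genes, identifiers already tied to another gene or matched better by a red-cell gene other than the 4 were left out. Before that step the best match of Alas2 was ENSRNOG00000047321, which alpha globin rows matched better, and the identifier used for it came second. This tied 791 genes, and a tied name can be wrong.

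The tools were R 4.3.3, edgeR 4.0.16 (filter by expression, TMM, quasi-likelihood test, threshold 0.05, tested on simulated data), DESeq2 1.42.0 and scipy 1.17.1. Correlations used log2 CPM with a prior count of 2. Intervals are Clopper-Pearson for ratios and Poisson for reads. By rule, the 4 genes, 2 globins, the 5 genes nearest to each, listed red-cell genes and genes over 5 times higher in 1 library were named, except for a gene near Alas2 and the list of other brain cells, which are not reported here. Of the T cell markers only Cd8a had a name (40.9 to 103 CPM in ICH+rhCDNF libraries and 86.1 to 220 CPM in ICH+Saline libraries). Alternatives were other scaling, DESeq2, no filter, another prior count, rank correlation, Hbb as denominator and leaving out each library.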

Additional observations from a re-analysis of the deposited data

Results flagged for a closer look

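In groups of 5 libraries, a value was singled out where its gap to the nearest other library, divided by the range of the group, exceeded the 95% critical value of Dixon's test (0.71). Chance alone exceeds that value in about 1 of 20 groups, but the 4 genes were chosen with their peaks in single libraries known, so that the list describes them and tests nothing. ICH+rhCDNF library S8 was singled out for Alas2 (28.5 CPM), Slc4a1 (23.4 CPM), Alox15 (64.8 CPM), Hba-a1 (854 CPM) and Hbb (206 CPM), with a gap of 0.95 to 0.99 of the range. ICH+rhCDNF library S6 was singled out for Ermap (16.6 CPM), with a gap of 0.713 of the range, just past the critical value. ICH+Saline library S2 was singled out for Slc4a1 (0.266 CPM), a value of 4 reads. No other of the 4 genes or 2 globins had such a library in either group.

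Genes named as more than 5 times higher in 1 library than in every other were, besides those in S8, Gbp6, Ifi27l2b and Dnajc6 in S6, at 25.7, 37.9 and 3.51 CPM there.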

How the results depend on the processing

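The 4 fold changes and the ratios to globin kept their direction under the other scalings, DESeq2 and a changed denominator, as did those of Alox15 and Ermap without the filter (Alas2 and Slc4a1 were fitted without it throughout). Leaving out each library in turn gave log2 fold changes of 0.63 to 4.16 for Alas2, 0.43 to 5.72 for Slc4a1 and 0.57 to 4.17 for Alox15, each lowest without S8, and of 0.71 to 1.87 for Ermap, lowest without S6. It gave correlations with Hba-a1 of 0.79 to 0.98 for Alas2, 0.14 to 0.95 for Slc4a1, -0.13 to 0.92 for Alox15 and -0.14 to 0.47 for Ermap, and the last 2 changed sign without S8. By rank the correlations were 0.24 for Slc4a1, 0.13 for Alox15 and 0.20 for Ermap. With Hbb as denominator Alox15 was 1.97 times as high in S8 as in the other 9 libraries, against 1.56 with Hba-a1. DESeq2 called 2 genes, against 0 for edgeR with all libraries and 0 without each library in turn. The causes of these differences were not tested. No paired analysis was possible because no column carries the replicate number of the labels. At this depth 1 read was 0.0653 to 0.0715 CPM in ICH+Saline libraries S3 to S5, so that differences between libraries with 1 to 4 Slc4a1 reads were not detectable.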
